A study of Mus musculus with 10 samples.

Results

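The 52 genes described here are named for their part in the G2/M transition and in mitosis. They are the members of a fixed list of gene symbols, and all 52 were found among the 16251 genes of the deposited count table and passed the filter on low counts. The 10 libraries hold messenger RNA of primary mouse LECs, lymphatic endothelial cells that form the inner lining of lymph vessels, taken 48 h after transfection. In 5 libraries the cells were labelled Vegfr2 siRNA, with a small interfering RNA at 50 nM against Vegfr2, the receptor for vascular endothelial growth factor that the gene Kdr encodes. The other 5 libraries were labelled control and carried the same treatment tag of siRNA knockdown, and the labels do not say whether those cells received another siRNA. The labels give no strain, age or sex of the donor mice and no sequence of the siRNA, and nothing about whether each replicate was its own culture. Each p-value below is thus set by the spread among these 10 samples alone, and that spread may be technical. The study's title asks about a shift from a lymphatic to a hematopoietic (blood cell) expression program. For the genes of cell division, the comparison asks how far each one differed between siRNA and control cells.

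Entry into mitosis is driven by the kinase Cdk1 bound to A- and B-type cyclins, which Wee1 holds back and Cdc25 phosphatases release. Polo-like and Aurora kinases then build the spindle, the kinetochore and the spindle checkpoint hold sister chromatids until all are attached, and Cdc20 with the anaphase-promoting complex destroys securin and cyclin B. Cytokinesis finally splits the cell at the central spindle. The genes are transcribed late in the cycle, repressed in resting cells by the DREAM complex and activated by B-Myb (Mybl2) with MuvB proteins and by Foxm1, through the CHR element and CCAAT boxes of their promoters. In cultured endothelium their messages are carried by the dividing cells. In bulk RNA a smaller share of such cells and less RNA in each of them cannot be told apart.

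Library totals ran from 18007463 to 18239260 estimated reads in siRNA and from 17946483 to 18162327 in control libraries. Levels are given as CPM, reads scaled to a common library size with TMM factors, in the order of replicates 1 to 5. Kdr was at 191, 196, 200.5, 173 and 167 CPM in siRNA libraries, and at 1328, 1320.0, 1280.0, 1259 and 1431 CPM in control libraries. It thus stood at 14.0% of its control level in siRNA cells (log2 fold change −2.83, edgeR adjusted p = 3.14e-11, and p = 0.00794 in a two-sided exact permutation test, the smallest that 252 assignments allow). All 12 lymphatic markers were detected and tested, and their summed level was 12072 to 13119 CPM in siRNA and 17949 to 19641 CPM in control libraries. Of these 12, 11 were lower and 1, Pdpn, was higher (log2 fold change 0.81). Of 9 pan-endothelial markers 8 were lower and 0 higher. Over all 12161 genes tested, 35.2% were lower and 36.1% higher at an edgeR adjusted p under 0.05. Markers of other cells summed to far less than the lymphatic and pan-endothelial ones. Fibroblast and mural markers (2 of 10 tested, 1 lower) summed to 5.87 to 8.43 CPM in siRNA and 7.89 to 11.3 CPM in control libraries, with Lum and Rgs5 at 0 counts in control. Leukocyte markers summed to 30.0 to 40.4 CPM in siRNA and 41.9 to 49.8 CPM in control libraries, nearly all of it Cd68 (1 tested, lower), with Csf1r at 0 counts in siRNA. Epithelial markers summed to 7.68 to 8.73 CPM in siRNA and 1.22 to 2.46 CPM in control libraries, nearly all of it Krt18 (1 tested, higher), with Krt8 at 0 counts in siRNA. The part of these marker shifts in the results below was not tested.

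Most mitotic genes that differed were lower after the siRNA, by small amounts, while a minority rose. Of 52 members, 27 fell (51.9%), 8 rose (15.4%) and 17 did not reach an adjusted p of 0.05 in edgeR's quasi-likelihood test. Over all 12161 genes tested 35.2% fell and 36.1% rose (71.3% in either direction), so the members fell more often and rose less often than the table as a whole, a difference for which no test was made. The counts by role given below stand beside these shares, and each rests on 2 to 8 genes. The median log2 fold change of the members was −0.089, against −0.0019 over all tested genes. Their levels in siRNA cells ran from 70.3% of control for Nusap1 to 140.0% for Plk4, and 7 members stood below 80% of control. The median size of change was 0.16 on the log2 scale for the members and 0.22 for all genes tested. In 23 members every siRNA library was below every control library (44.2%, against 28.2% of all tested genes), and in 6 every siRNA library was above (11.5%, against 28.8%). In the other 23 the groups overlapped, while 57.0% of all tested genes had groups apart. The summed level of the 52 genes was 6638, 6716, 6693, 6596 and 6640.3 CPM in the siRNA libraries, and 7262, 7228, 7082, 7114 and 7461 CPM in the control libraries. The groups did not overlap, and the siRNA sum was 92.1% of the control sum. No member passed edgeR's glmTreat test against a fold of 1.5 in either direction, where 4.88% of all genes were lower and 3.68% higher, and no member had an unadjusted p under 0.05 in that test.

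**Figure D1:**
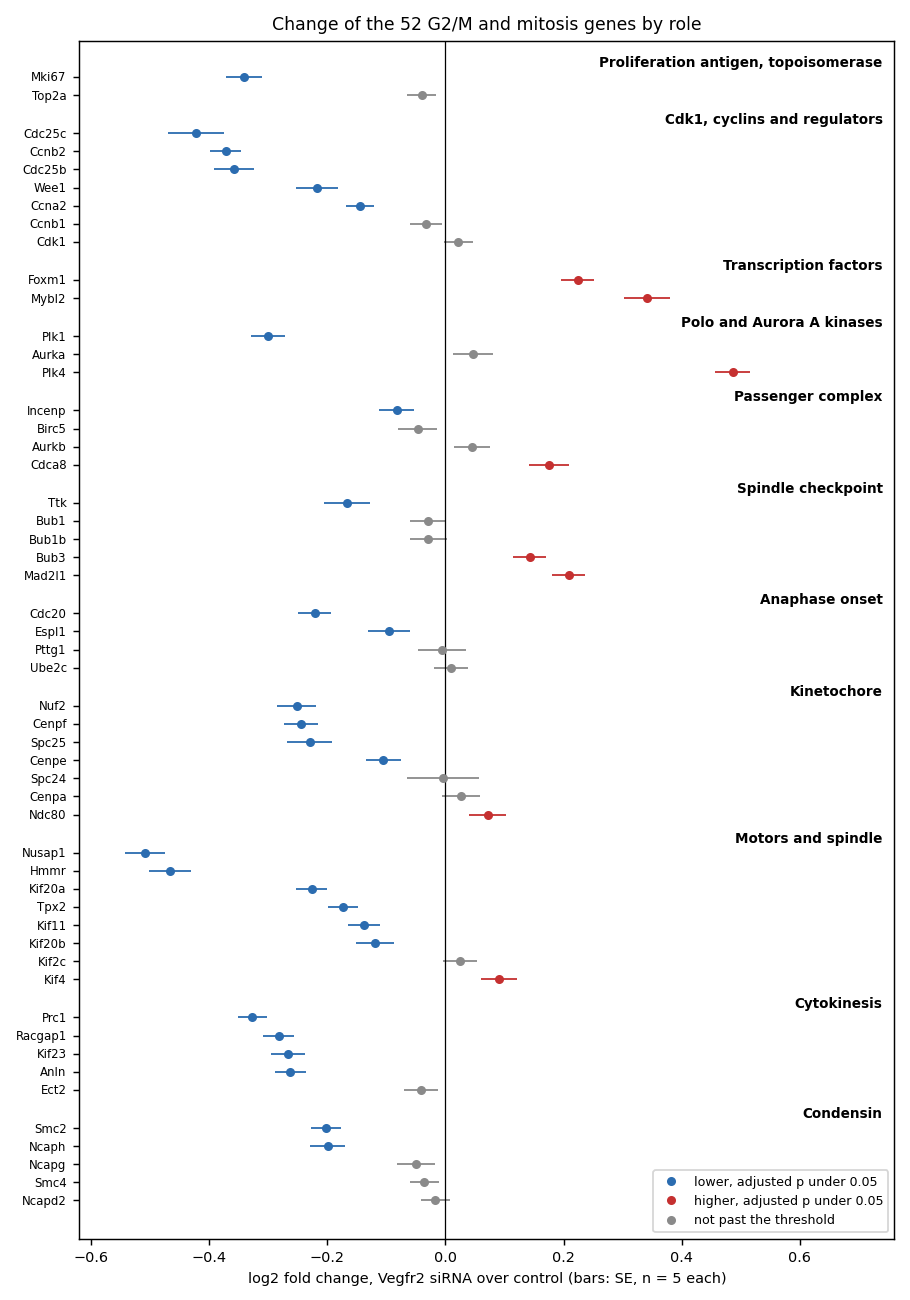
Log2 fold change of Vegfr2 siRNA over control for each of the 52 genes, grouped by role, with bars of 1 standard error (n = 5 each). Blue points fell (27 genes), red points rose (8 genes) and grey points did not pass the threshold (17 genes), and the values run from −0.51 for Nusap1 to 0.49 for Plk4.

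The promoters of these genes were searched for the CHR element and CCAAT boxes, through which genes of this kind are known to be controlled. A high share among the members is therefore no independent result. Promoter windows from RefSeq (GRCm38.p6) reach from 250 bases before to 50 bases after a gene's start, and 42 of the 52 members have at least 1 window. A CHR word, TTTGAA or TTCGAA on either strand, was found in a window of 32 of these 42 members (76.2%), and in 16.4% of the 9763 tested genes with a window. A CCAAT box, CCAAT on either strand, was found in 71.4% of the members and 43.8% of tested genes. Both together were in 66.7% of the members and 7.10% of tested genes, and a CHR word with at least 2 CCAAT boxes was in 42.9% of the members and 2.88% of tested genes. TTCGAA reads the same on both strands and was counted once per place. By direction, the CHR word was in 17 of 21 members that fell, 4 of 7 that rose and 11 of 14 that did not pass. The window of Nusap1, the member with the largest fall, held neither word. That of Top2a, which did not pass, held 4 CHR words and 6 CCAAT boxes. A match is a description of these letters and not a bound site.

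Of the usual stains of cycling cells, the Ki-67 antigen gene fell and the topoisomerase II alpha gene did not pass the test. Mki67 (Entrez gene 17345, GRCm38.p6 chr7:135689784-135716450), whose product coats mitotic chromosomes, was at 373, 374, 372, 363 and 371 CPM in siRNA libraries, and at 461, 483, 453, 437 and 512 CPM in control libraries. Every siRNA library lay below every control library, and the siRNA libraries were closer to each other than the control libraries were. It averaged 370.5 ± 4.53 CPM in siRNA and 469 ± 29.1 CPM in control cells (SD, n = 5 each; log2 fold change −0.34, SE 0.0305, adjusted p = 1.14e-10). Top2a (Entrez gene 21973, chr11:98992947-99024199), which untangles sister DNA, was at 532, 552, 549, 527 and 541 CPM in siRNA libraries, and at 561, 552, 533, 547 and 584 CPM in control libraries. Its groups overlapped and the difference did not pass (log2 fold change −0.04, SE 0.0244, adjusted p = 0.139), although it passed with upper-quartile scaling (adjusted p = 0.0329).

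Cdk1 itself and cyclin B1 did not differ beyond the replicate spread, while cyclin B2 and both Cdc25 phosphatase genes fell. Cdk1, the mitotic kinase (Entrez gene 12534, chr10:69335146-69352912), was at 198, 196, 200.3, 201 and 204 CPM in siRNA libraries, and at 202, 199, 191, 198 and 194 CPM in control libraries (log2 fold change 0.022, SE 0.0247, adjusted p = 0.441). Ccnb1, its main partner at the spindle (Entrez gene 268697, chr13:100778739-100786486), was at 151, 162, 159.9, 167 and 165 CPM in siRNA libraries, and at 170.1, 160.4, 161, 162 and 169.5 CPM in control libraries (log2 fold change −0.033, SE 0.0277, adjusted p = 0.289). In both genes the libraries of the groups were interleaved. Ccnb2, the second B-type cyclin (Entrez gene 12442, chr9:70407689-70421554), was at 131, 129.9, 137, 135 and 135 CPM in siRNA libraries, and at 171, 174, 172, 175 and 173 CPM in control libraries. The gap between the groups was wider than the whole range within either group, and Ccnb2 averaged 134 ± 3.08 CPM in siRNA and 173 ± 1.61 CPM in control cells (SD, n = 5 each; log2 fold change −0.37, SE 0.0255, adjusted p = 5.33e-17). Ccna2, the cyclin of S phase and G2 (Entrez gene 12428), was at 267, 275, 270.1, 263 and 265 CPM in siRNA libraries, and at 301, 291, 292, 299 and 298 CPM in control libraries (log2 fold change −0.14, SE 0.0236, adjusted p = 7.01e-07), again without overlap. Its counts were fractional in all 10 libraries, which marks reads divided between genes, and 12.5% of its exon bases are shared with Exosc9 on the opposite strand.

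The windows of the cyclin B genes are shown because the genes belong to 1 family and differed in response, with the CHR words and CCAAT boxes (or their reverse complements) in capitals. This pair and those printed further below were picked after the fold changes were seen. Whether the words bear on the direction of change was not tested. Of members not printed, Nusap1, Nuf2, Ncaph and Cenpe fell with no CHR word in their windows. Bub3, Kif4, Cdca8 and Ndc80 rose and held the word. The Ccnb2 window (chr9:70421505-70421804, minus strand) holds CHR words starting at −167 and 4 and CCAAT boxes at −87, −54 and −21, counted from 0 at the first transcribed base. The Ccnb1 window (chr13:100786437-100786736, minus strand) holds no CHR word and CCAAT boxes at −99 and −67.
Ccnb2: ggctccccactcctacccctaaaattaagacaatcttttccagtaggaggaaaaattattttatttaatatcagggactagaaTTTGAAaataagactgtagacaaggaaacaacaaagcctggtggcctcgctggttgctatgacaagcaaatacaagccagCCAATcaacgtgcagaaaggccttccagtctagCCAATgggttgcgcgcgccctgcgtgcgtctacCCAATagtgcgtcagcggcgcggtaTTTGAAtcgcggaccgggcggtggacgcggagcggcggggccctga
Ccnb1: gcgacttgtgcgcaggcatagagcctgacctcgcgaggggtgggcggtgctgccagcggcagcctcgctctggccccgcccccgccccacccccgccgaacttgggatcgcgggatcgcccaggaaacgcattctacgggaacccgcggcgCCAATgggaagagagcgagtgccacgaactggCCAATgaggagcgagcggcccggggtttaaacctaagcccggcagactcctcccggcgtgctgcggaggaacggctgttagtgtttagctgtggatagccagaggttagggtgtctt

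The 3 members that set the phosphorylation of Cdk1, the activating Cdc25b and Cdc25c and the inhibitory Wee1, fell. Cdc25b, an activating phosphatase (Entrez gene 12531), was at 70.4, 71.3, 73.9, 66.1 and 66.8 CPM in siRNA libraries, and at 84.4, 90.2, 87.5, 93.8 and 90.8 CPM in control libraries (log2 fold change −0.36, SE 0.0336, adjusted p = 1.01e-12). Cdc25c, its relative (Entrez gene 12532), was at 21.6, 20.4, 22.5, 20.7 and 20.1 CPM in siRNA libraries, and at 28.6, 28.5, 29.0, 27.2 and 27.8 CPM in control libraries. It averaged 21.0 ± 0.983 CPM in siRNA and 28.2 ± 0.703 CPM in control cells (SD, n = 5 each; log2 fold change −0.42, SE 0.0472, adjusted p = 1.23e-10), and 12.7% of its exon bases are shared with Gm3550 on the opposite strand. Wee1, the inhibitory kinase (Entrez gene 22390), was at 62.9, 58.7, 61.4, 63.9 and 62.2 CPM in siRNA libraries, and at 68.2, 75.8, 72.6, 67.4 and 75.4 CPM in control libraries (log2 fold change −0.22, SE 0.0355, adjusted p = 7.38e-07). None of these 3 genes had overlapping groups. Outside the 52 genes, the activating Cdc25a (log2 fold change 0.21, SE 0.0388, adjusted p = 6.8e-06) and the inhibitory Pkmyt1 (log2 fold change 0.088, SE 0.0388, adjusted p = 0.0399, with overlapping groups) rose; Pkmyt1 is named after its values were seen and was not refitted under the alternatives. Of the 7 genes of this group 5 fell, 0 rose and 2 did not pass, Cdk1 and Ccnb1.

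**Figure D2:**
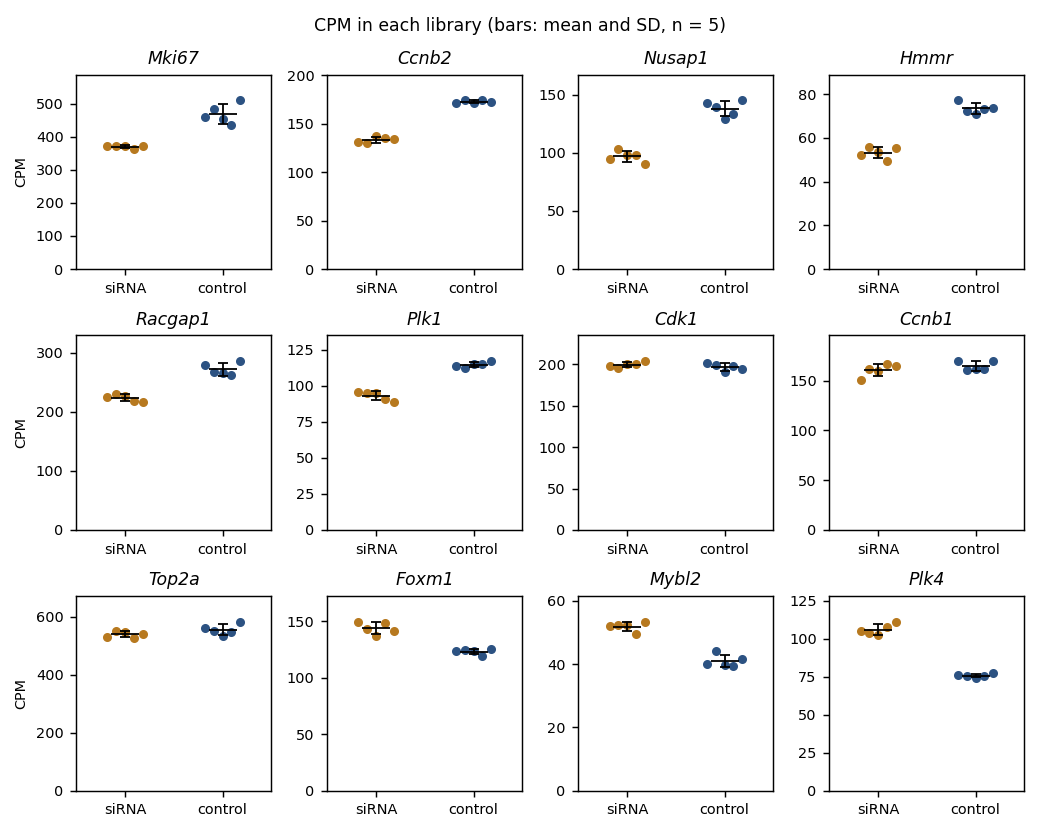
CPM of 12 members in each library, siRNA on the left and control on the right, with points in the order of replicates 1 to 5 and bars for the mean and SD (n = 5). Mki67, Ccnb2, Nusap1, Hmmr, Racgap1 and Plk1 lie lower in every siRNA library, Cdk1, Ccnb1 and Top2a overlap, and Foxm1, Mybl2 and Plk4 lie higher in every siRNA library.

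Both transcription factor genes of the list rose. Foxm1, a forkhead activator of G2/M genes (Entrez gene 14235, chr6:128362994-128375886), was at 149.6, 143, 136, 148 and 141 CPM in siRNA libraries, and at 123, 124, 123, 119 and 125 CPM in control libraries. The lowest siRNA library was above the highest control library, and Foxm1 averaged 144 ± 5.32 CPM in siRNA and 123 ± 2.46 CPM in control cells (SD, n = 5 each; log2 fold change 0.22, SE 0.0279, adjusted p = 2.06e-09). Mybl2, which encodes B-Myb (Entrez gene 17865, chr2:163054327-163084688), was at 51.9, 52.2, 52.2, 49.5 and 53.4 CPM in siRNA libraries, and at 40.0, 44.1, 39.6, 39.3 and 41.7 CPM in control libraries. Its groups did not overlap either, and it averaged 51.8 ± 1.43 CPM in siRNA and 40.9 ± 2.00 CPM in control cells (SD, n = 5 each; log2 fold change 0.34, SE 0.0384, adjusted p = 1.55e-10).

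The polo-like kinase genes moved in opposite directions, and Aurora A did not pass. Plk1, which acts at centrosomes, kinetochores and the midbody (Entrez gene 18817, chr7:122159435-122169884), was at 95.9, 95.2, 94.8, 90.5 and 88.9 CPM in siRNA libraries, and at 114, 112, 115, 115 and 117 CPM in control libraries. It averaged 93.1 ± 3.15 CPM in siRNA and 115 ± 1.79 CPM in control cells (SD, n = 5 each; log2 fold change −0.30, SE 0.0288, adjusted p = 1.88e-12). Plk4, which starts centriole duplication (Entrez gene 20873, chr3:40799951-40816883), was at 105, 103, 103, 108 and 111 CPM in siRNA libraries, and at 76.4, 75.4, 74.0, 75.4 and 77.2 CPM in control libraries. That was the largest rise of all members, with a mean of 106 ± 3.53 CPM in siRNA and 75.7 ± 1.22 CPM in control cells (SD, n = 5 each; log2 fold change 0.49, SE 0.0299, adjusted p = 1.66e-18). Neither gene had overlapping groups. Aurka, the centrosomal Aurora kinase (Entrez gene 20878), was at 59.3, 59.6, 60.5, 58.3 and 58.5 CPM in siRNA libraries, and at 58.0, 56.0, 55.1, 61.0 and 56.8 CPM in control libraries, with overlap (log2 fold change 0.046, SE 0.0342, adjusted p = 0.227).

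The windows of Plk1 and Plk4 are shown for the same contrast within a family. The Plk1 window (chr7:122159185-122159484, plus strand) holds a CHR word starting at 30 and a CCAAT box at −14. In the Plk4 window (chr3:40799701-40800000, plus strand) neither word was found, which says only that these letters are not in this window.
Plk1: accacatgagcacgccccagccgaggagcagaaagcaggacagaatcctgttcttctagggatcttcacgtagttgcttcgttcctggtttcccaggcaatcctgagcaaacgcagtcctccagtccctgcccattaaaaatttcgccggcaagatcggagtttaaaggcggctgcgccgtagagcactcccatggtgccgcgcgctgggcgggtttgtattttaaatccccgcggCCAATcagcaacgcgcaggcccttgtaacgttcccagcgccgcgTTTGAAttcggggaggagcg
Plk4: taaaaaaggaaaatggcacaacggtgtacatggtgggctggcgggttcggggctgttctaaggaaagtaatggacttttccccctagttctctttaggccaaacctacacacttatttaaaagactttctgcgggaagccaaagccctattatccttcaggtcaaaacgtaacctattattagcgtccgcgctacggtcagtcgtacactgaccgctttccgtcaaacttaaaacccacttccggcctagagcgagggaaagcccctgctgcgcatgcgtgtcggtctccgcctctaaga

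Within the chromosomal passenger complex, which corrects faulty attachments and directs the cleavage furrow, the subunits differed in direction. Of 4 genes 1 fell, 1 rose and 2 did not pass. Cdca8, which encodes borealin (Entrez gene 52276), was at 76.1, 73.2, 78.0, 71.9 and 71.5 CPM in siRNA libraries, and at 65.9, 66.6, 62.4, 69.6 and 63.9 CPM in control libraries. It rose without overlap (log2 fold change 0.17, SE 0.0340, adjusted p = 1.6e-05). Incenp, the scaffold (Entrez gene 16319), was at 118, 112, 119, 111 and 116 CPM in siRNA libraries, and at 119, 129, 121, 117 and 125 CPM in control libraries. Its groups overlapped, the difference was small (log2 fold change −0.082, SE 0.0295, adjusted p = 0.0122), and it did not pass without control replicate 2 (adjusted p = 0.0750). Aurkb, the kinase (Entrez gene 20877), was at 79.2, 78.4, 80.5, 83.4 and 75.9 CPM in siRNA libraries, and at 77.3, 76.6, 77.9, 75.4 and 78.0 CPM in control libraries (log2 fold change 0.045, SE 0.0309, adjusted p = 0.189). Birc5, which encodes survivin (Entrez gene 11799), was at 83.6, 84.6, 85.1, 86.7 and 87.9 CPM in siRNA libraries, and at 85.2, 91.2, 85.9, 84.0 and 95.8 CPM in control libraries (log2 fold change −0.047, SE 0.0327, adjusted p = 0.197). Both genes had overlapping groups.

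Genes of the spindle checkpoint, which delays anaphase until kinetochores are attached, did not move in a common direction. Of 5 genes 2 rose, 1 fell and 2 did not pass. Mad2l1, which binds and blocks Cdc20 (Entrez gene 56150), was at 112, 117, 112, 115 and 119.7 CPM in siRNA libraries, and at 99.0, 99.1, 102, 96.9 and 102 CPM in control libraries (log2 fold change 0.21, SE 0.0284, adjusted p = 1.59e-08). Bub3, the adaptor of the Bub kinases (Entrez gene 12237), was at 163, 158, 163, 167 and 163 CPM in siRNA libraries, and at 144, 153, 150.0, 151 and 139.7 CPM in control libraries (log2 fold change 0.14, SE 0.0273, adjusted p = 1.26e-05). Both rose without overlap. Ttk, the Mps1 kinase that starts checkpoint signalling (Entrez gene 22137), was at 42.4, 45.6, 45.1, 43.0 and 44.6 CPM in siRNA libraries, and at 49.4, 48.6, 46.8, 49.4 and 53.6 CPM in control libraries and fell (log2 fold change −0.17, SE 0.0388, adjusted p = 0.000194). The kinase gene Bub1 averaged 89.0 ± 1.59 CPM in siRNA and 90.8 ± 3.78 CPM in control cells, and its relative Bub1b averaged 96.7 ± 4.14 CPM in siRNA and 98.7 ± 3.97 CPM in control cells (SD, n = 5 each). Neither passed (adjusted p = 0.393 for Bub1 and 0.421 for Bub1b).

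At anaphase onset, the activator gene Cdc20 fell and its partners differed little. Cdc20 (Entrez gene 107995) was at 105, 99.99, 102, 104 and 100.1 CPM in siRNA libraries, and at 117, 123, 116, 119 and 120.5 CPM in control libraries. Every siRNA library was below every control library (log2 fold change −0.22, SE 0.0281, adjusted p = 2.95e-09). Espl1, which encodes separase, the protease that opens cohesin, averaged 59.9 ± 2.62 CPM in siRNA and 64.0 ± 2.57 CPM in control cells (SD, n = 5 each; log2 fold change −0.10, SE 0.0355, adjusted p = 0.0156). That fall had overlapping groups and did not pass without siRNA replicate 2 (adjusted p = 0.0632) or without control replicate 5 (adjusted p = 0.0792). Ube2c, the ubiquitin-conjugating enzyme of the anaphase-promoting complex (Entrez gene 68612), was at 132, 125, 129.7, 121 and 124 CPM in siRNA libraries, and at 129, 124, 129.8, 124 and 120.3 CPM in control libraries (log2 fold change 0.0086, SE 0.0288, adjusted p = 0.801), and 22.8% of its exon bases are shared with Tnnc2 on the opposite strand. Pttg1, the securin gene, averaged 35.4 ± 0.797 CPM in siRNA and 35.5 ± 0.977 CPM in control cells (SD, n = 5 each) and did not pass (adjusted p = 0.901).

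Kinetochore genes fell in 4 of 7 cases and rose in 1, while 2 were under the threshold, and the subunits of a single complex split. The Ndc80 complex, which grips microtubule ends, is made of Ndc80, Nuf2, Spc24 and Spc25. Nuf2 (Entrez gene 66977) was at 56.2, 56.4, 60.3, 58.6 and 60.4 CPM in siRNA libraries, and at 70.7, 69.8, 70.3, 66.9 and 70.0 CPM in control libraries. It fell without overlap (log2 fold change −0.25, SE 0.0331, adjusted p = 6.95e-09). Ndc80 (Entrez gene 67052) was at 70.7, 70.7, 68.1, 68.9 and 70.4 CPM in siRNA libraries, and at 66.8, 63.9, 66.4, 66.7 and 68.2 CPM in control libraries. Its small rise (log2 fold change 0.071, SE 0.0315, adjusted p = 0.0407) had an adjusted p over 0.05 with DESeq2 (0.0811), upper-quartile scaling (0.108) and a minimum mean of 5 CPM (0.0640), and without siRNA replicates 1 (0.0757), 2 (0.0784) or 5 (0.0692) or control replicates 2 (0.0996) or 3 (0.0520). Spc25 averaged 55.2 ± 3.14 CPM in siRNA and 64.7 ± 3.36 CPM in control cells (SD, n = 5 each) and fell (log2 fold change −0.23, SE 0.0387, adjusted p = 1.6e-06). Spc24, the least abundant member by CPM, averaged 16.2 ± 1.35 CPM in siRNA and 16.2 ± 0.837 CPM in control cells (SD, n = 5 each) and did not pass (adjusted p = 0.953). Of the centromere proteins, the farnesylated coat protein gene Cenpf fell (167 ± 4.57 CPM in siRNA and 198 ± 9.49 CPM in control cells, SD, n = 5 each; log2 fold change −0.24, SE 0.0284, adjusted p = 4.71e-10), as did the kinesin gene Cenpe (log2 fold change −0.11, SE 0.0301, adjusted p = 0.00201), whose groups overlapped. Cenpa, the centromeric histone (Entrez gene 12615), was at 72.2, 72.6, 75.03, 71.8 and 78.8 CPM in siRNA libraries, and at 70.5, 74.5, 73.7, 73.0 and 71.8 CPM in control libraries (log2 fold change 0.027, SE 0.0322, adjusted p = 0.464).

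Spindle motors and microtubule-binding proteins held the largest falls. Nusap1, which bundles spindle microtubules around chromosomes (Entrez gene 108907, chr2:119618298-119650165), was at 94.8, 103, 98.6, 98.0 and 90.3 CPM in siRNA libraries, and at 143, 139, 129, 133 and 146 CPM in control libraries. The highest siRNA library was well below the lowest control library, and Nusap1 averaged 97.0 ± 4.80 CPM in siRNA and 138 ± 6.63 CPM in control cells (SD, n = 5 each; log2 fold change −0.51, SE 0.0335, adjusted p = 1.97e-15). Its reads were divided between genes in 9 libraries. Hmmr, a hyaluronan receptor that also organises spindle poles (Entrez gene 15366, chr11:40701388-40733464), averaged 53.2 ± 2.54 CPM in siRNA and 73.6 ± 2.39 CPM in control cells (SD, n = 5 each; log2 fold change −0.47, SE 0.0351, adjusted p = 1.25e-15), again without overlap.

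Of the mitotic motors, Kif11, the motor that separates spindle poles (Entrez gene 16551), was at 177, 172, 166, 173 and 167 CPM in siRNA libraries, and at 190.3, 185, 181, 184 and 200.3 CPM in control libraries (log2 fold change −0.14, SE 0.0273, adjusted p = 2.04e-05). Its groups did not overlap. Kif4, a chromokinesin gene on the X chromosome (Entrez gene 16571), was at 85.3, 88.1, 86.8, 84.0 and 82.4 CPM in siRNA libraries, and at 80.4, 77.6, 79.2, 80.7 and 82.7 CPM in control libraries. It rose with overlap between the groups (log2 fold change 0.091, SE 0.0303, adjusted p = 0.0072), and 15.1% of its exon bases are shared with Pdzd11 on the opposite strand. The Aurora A activator gene Tpx2 fell (log2 fold change −0.17, SE 0.0248, adjusted p = 4.73e-08), as did the kinesin genes Kif20a (−0.23) and Kif20b (−0.12), the second with overlapping groups. Kif20a shares 29.3% of its exon bases with Cdc23 on the opposite strand and had divided reads in all 10 libraries. Kif2c, a microtubule-shrinking kinesin gene, averaged 87.1 ± 0.686 CPM in siRNA and 85.6 ± 1.23 CPM in control cells (SD, n = 5 each) and did not pass (adjusted p = 0.435). In all, 6 of these 8 genes fell, 1 rose and 1 did not pass.

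Cytokinesis genes of the list fell in 4 of 5 cases, against 35.2% of all tested genes. Their summed level in siRNA cells, 83.5% of control, was the lowest of the 11 role groups. The 12 further cytokinesis genes outside the list did not share this. Of those, 4 fell and 3 rose, and their summed level was 98.7% of control. Racgap1, which forms the centralspindlin complex with Kif23 (Entrez gene 26934, chr15:99620496-99651656), was at 226, 231, 227, 219 and 217 CPM in siRNA libraries, and at 280.0, 267, 265, 262 and 287 CPM in control libraries. It averaged 224 ± 5.68 CPM in siRNA and 272 ± 10.6 CPM in control cells (SD, n = 5 each; log2 fold change −0.28, SE 0.0264, adjusted p = 8.88e-13). Kif23, the kinesin of the same complex (Entrez gene 71819, chr9:61917277-61946810), averaged 91.9 ± 2.56 CPM in siRNA and 111 ± 2.18 CPM in control cells (SD, n = 5 each; log2 fold change −0.27, SE 0.0287, adjusted p = 4.4e-11). Prc1, which crosslinks the central spindle (Entrez gene 233406, chr7:80294445-80316259), was at 220.1, 224, 227, 219.6 and 213 CPM in siRNA libraries, and at 283, 271, 272, 272 and 286 CPM in control libraries. Its log2 fold change was −0.33 (SE 0.0250, adjusted p = 1.98e-15), its reads were divided between genes in all 10 libraries, and 11.1% of its exon bases are shared with Rccd1 on the opposite strand. Anln, the furrow scaffold anillin, averaged 168 ± 2.51 CPM in siRNA and 202 ± 6.21 CPM in control cells (SD, n = 5 each; log2 fold change −0.26, SE 0.0257, adjusted p = 3.23e-12), with divided reads in 8 libraries. None of these 4 genes had overlapping groups. Ect2, the exchange factor that activates RhoA at the furrow (Entrez gene 13605), was at 103, 104, 99.6, 103 and 98.4 CPM in siRNA libraries, and at 107, 101, 105, 102 and 107 CPM in control libraries, and did not pass (log2 fold change −0.042, SE 0.0286, adjusted p = 0.188).

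The windows of Racgap1 and Kif23 are shown because these partner genes fell by like amounts. The Racgap1 window (chr15:99651607-99651906, minus strand) holds a CHR word starting at 5 and a CCAAT box at −12, and the Kif23 window (chr9:61946750-61947049, minus strand) a CHR word at 2 and a CCAAT box at −7.
Racgap1: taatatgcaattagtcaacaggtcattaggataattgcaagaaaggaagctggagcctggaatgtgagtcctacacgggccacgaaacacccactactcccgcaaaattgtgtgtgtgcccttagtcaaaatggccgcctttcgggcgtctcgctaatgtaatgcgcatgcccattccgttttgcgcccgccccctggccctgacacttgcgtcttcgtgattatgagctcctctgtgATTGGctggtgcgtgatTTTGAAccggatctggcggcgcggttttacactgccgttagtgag
Kif23: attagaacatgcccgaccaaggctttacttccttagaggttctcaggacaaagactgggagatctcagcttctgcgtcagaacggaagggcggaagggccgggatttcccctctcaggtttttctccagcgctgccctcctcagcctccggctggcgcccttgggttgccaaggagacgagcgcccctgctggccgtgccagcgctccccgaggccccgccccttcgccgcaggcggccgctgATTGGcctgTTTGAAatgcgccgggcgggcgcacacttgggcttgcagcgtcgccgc

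Condensin, the ring complex that compacts mitotic chromosomes, had 2 genes that fell and 3 that did not pass. Smc2, an ATPase arm of the ring (Entrez gene 14211), was at 202, 213, 201, 206 and 209 CPM in siRNA libraries, and at 238, 232, 240.0, 232 and 244 CPM in control libraries. It fell without overlap (log2 fold change −0.20, SE 0.0250, adjusted p = 1.61e-09). Smc4, the other arm (Entrez gene 70099), was at 372, 381, 369.6, 364 and 375 CPM in siRNA libraries, and at 388, 375, 374, 371 and 401 CPM in control libraries. Its groups overlapped (log2 fold change −0.036, SE 0.0244, adjusted p = 0.19), although it passed with upper-quartile scaling (adjusted p = 0.0488). Of the condensin I subunits, the closing subunit gene Ncaph averaged 90.4 ± 2.95 CPM in siRNA and 104 ± 2.64 CPM in control cells (SD, n = 5 each) and fell (log2 fold change −0.20, SE 0.0297, adjusted p = 1.09e-07). Ncapd2 (Entrez gene 68298) was at 215, 207, 204, 205 and 206 CPM in siRNA libraries, and at 209, 215, 204, 207 and 215 CPM in control libraries (log2 fold change −0.017, SE 0.0249, adjusted p = 0.544). Ncapg averaged 75.3 ± 2.21 CPM in siRNA and 77.9 ± 2.88 CPM in control cells (SD, n = 5 each; adjusted p = 0.156), with divided reads in all 10 libraries and 13.4% of exon bases shared with Lcorl on the opposite strand.

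**Figure D3:**
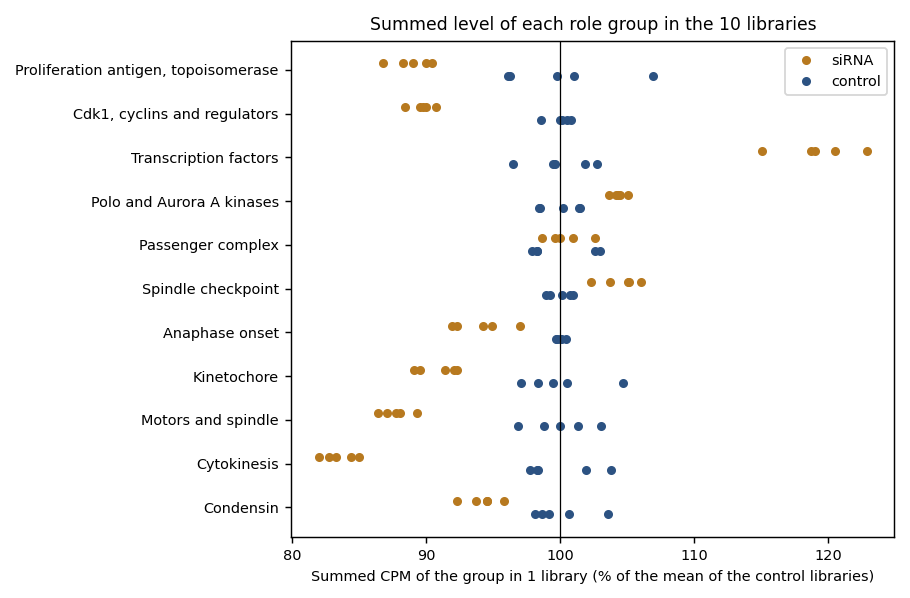
Summed CPM of each role group in each library as a percentage of the mean of the 5 control libraries, with siRNA libraries (ochre) above control libraries (blue) in each row. The cytokinesis sum was 83.5% of control on average and the transcription factor sum 119%, and in the passenger complex row the groups overlap.

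Summed by role, the siRNA libraries stood apart from the control libraries in 10 of 11 groups. Among all tested genes taken singly 57.0% were apart, and no like share was made for sums. The sum of the DNA replication and G1/S genes was apart too (5416 to 5547 CPM in siRNA and 5688 to 5743 CPM in control libraries). Separation of a sum was thus not particular to these roles. Below the control range were cytokinesis (83.5% of the control mean), motors and spindle (87.7%), Mki67 with Top2a (88.9%), Cdk1 with its cyclins and regulators (89.7%), kinetochore (90.9%), anaphase onset (94.1%) and condensin (94.2%). Above it were polo-like and Aurora A kinases (104.3%), the spindle checkpoint (104.4%) and the transcription factors (119%). These sums are weighted towards abundant genes, and Plk4 and Plk1 offset each other in theirs. The passenger complex sum was 348 to 362 CPM in siRNA and 346 to 364 CPM in control libraries.

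Levels between genes were compared per kilobase of the longest GENCODE M21 transcript. The transcripts present in these cells were not determined, and a shorter one would raise a gene's value. For Mad2l1, 6802 of the 7557 bases are 3′ UTR. The order given here therefore holds for this scale only. On that scale Top2a averaged 103 ± 2.13 CPM per kb in siRNA and 106 ± 3.61 in control cells, Ccna2 90.4 ± 1.70 in siRNA and 99.9 ± 1.47 in control cells (SD, n = 5 each). Ccnb2 averaged 87.3 ± 2.01 CPM per kb in siRNA and 113 ± 1.05 in control cells. Ccnb2 thus had the highest mean of the members in control cells, and Top2a in siRNA cells, where Ccna2, Ccnb2 and Smc4 (86.3 ± 1.51) followed. The lowest mean in siRNA cells was that of Cdc25c, at 7.99 ± 0.373 CPM per kb in siRNA and 10.7 ± 0.267 in control cells. In control cells Spc24 (9.57 ± 0.494) and Espl1 (9.61 ± 0.386) lay below it and did not differ from each other beyond their spread.

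Partner genes were set side by side by the ratio of their CPM values within each library, in which scaling cancels. The 12 pairs were chosen after the values were seen, so their ratios are a description and carry no test. The ratio of Ccnb2 to Ccnb1 was 0.831 ± 0.0307 in siRNA and 1.05 ± 0.0365 in control libraries (SD, n = 5 each; log2 difference −0.34). That of Nuf2 to Ndc80 was 0.837 ± 0.0395 in siRNA and 1.05 ± 0.0347 in control libraries (log2 difference −0.32). In both pairs every siRNA library was below every control library. Smc2 over Smc4 was 0.554 ± 0.00977 in siRNA and 0.622 ± 0.0125 in control libraries (log2 difference −0.17). Plk4 over Plk1 was 1.14 ± 0.0763 in siRNA and 0.661 ± 0.0114 in control libraries (log2 difference 0.79), a separation already given by the opposite directions of the genes. The siRNA libraries also lay below all control libraries for Tpx2 over Aurka (log2 difference −0.22) and, narrowly, Incenp over Aurkb (−0.13).

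In the other pairs the groups overlapped. The log2 difference was −0.22 for Spc25 over Spc24 and ranged from −0.28 to −0.15 with each library left out in turn. It was −0.15 for Ncaph over Ncapg, 0.12 for Mybl2 over Foxm1 and −0.065 for Cdc25c over Cdc25b. Racgap1 over Kif23 was 2.44 ± 0.109 in siRNA and 2.46 ± 0.0641 in control libraries (log2 difference −0.015), and that difference lay between −0.035 and 0.0047 with each library left out. Bub1b over Bub1 had a log2 difference of −0.00022. Overlap does not show that these partners act alike.

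**Figure D4:**
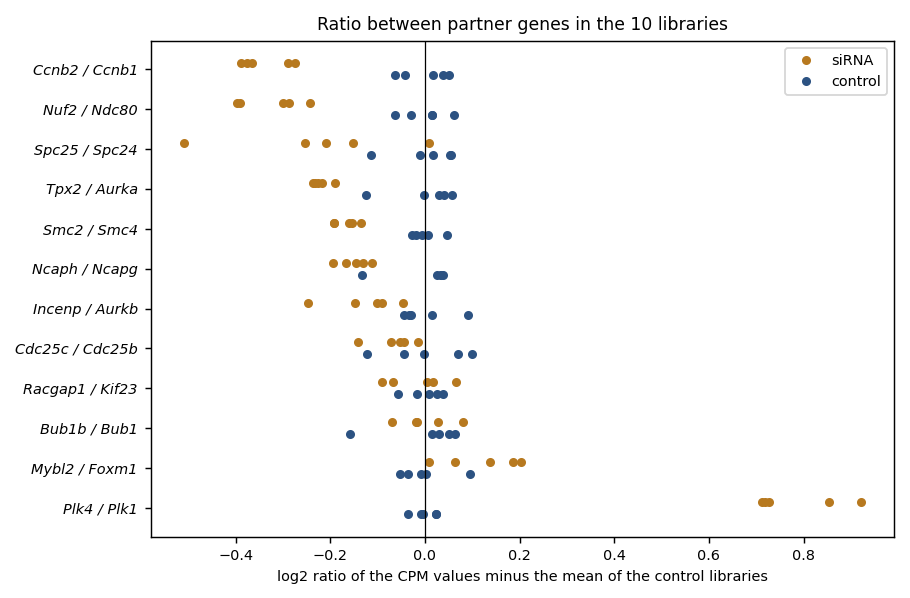
Log2 ratio between partner genes in each library, minus the mean of the 5 control libraries, with siRNA libraries (ochre) above control libraries (blue) in each row. The siRNA libraries lie apart from all control libraries for Ccnb2/Ccnb1, Nuf2/Ndc80, Tpx2/Aurka, Smc2/Smc4, Incenp/Aurkb and Plk4/Plk1, and overlap them in the other 6 pairs.

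A 7-base word, GTAAAGA, had been tied to lower fold changes in earlier work on these data. It occurs in the longest annotated 3′ UTR of 8 of the 52 members (15.4%) and of 12.9% of tested genes with a 3′ UTR of at least 50 bases. The 8 are Mki67, Plk4, Mad2l1, Cenpf, Kif20b, Nusap1, Anln and Smc2, of which Plk4 and Mad2l1 rose and the other 6 fell. The median log2 fold change was −0.22 in members with the word and −0.049 in those without it. Over tested genes it was −0.13 with and 0.016 without the word. Because the word was tied to these same fold changes beforehand, the medians restate that choice and are no separate support for it. No siRNA sequence was available to set beside the word. Without the carriers 21 members fell and 6 rose.

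Other genes of mitosis, taken from lists that hold no member, are given list by list, with no test of a difference between lists. The value after each gene named is its log2 fold change, and the counts stand beside 35.2% lower and 36.1% higher over all tested genes. Of 37 further kinetochore genes 9 fell and 19 rose, with a median log2 fold change of 0.091. Hjurp, which loads Cenpa onto centromeres, was at 441, 439, 444, 445 and 418 CPM in siRNA libraries, and at 564, 590.4, 567, 558 and 617 CPM in control libraries. It fell without overlap (log2 fold change −0.41). Cenpp fell by 0.44 on the log2 scale. The kinetochore genes Zwint (0.72) and Cenpw (0.81) and the checkpoint ATPase gene Trip13 (0.68) rose. Of 33 further spindle and centrosome genes 18 fell and 9 rose (median −0.11). Psrc1, a microtubule-binding spindle protein, was at 3.01, 3.13, 2.91, 2.85 and 2.86 CPM in siRNA libraries, and at 7.89, 9.23, 8.45, 9.11 and 9.65 CPM in control libraries (log2 fold change −1.58, SE 0.0964, adjusted p = 1.17e-18). This fall was larger than that of any member. Ckap2l (−0.69) and the spindle pole gene Aspm (−0.56) also fell, and the Ran exchange factor gene Rcc1 (0.60), the kinase gene Nek6 (0.31) and the centriole cartwheel gene Sass6 (0.28), which acts with Plk4, rose.

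Of 12 further cytokinesis genes 4 fell and 3 rose (median −0.033), among them Depdc1a (−0.49), Iqgap3 (−0.30) and Arhgap11a (−0.17) down, and the abscission genes Tsg101 (0.34) and Chmp4b (0.29) and Depdc1b (0.21) up. Of 22 further G2/M regulators 6 fell and 7 rose (median −0.021). Ckap2 (−0.47), which the spindle list also holds, the phosphatase inhibitor gene Arpp19 (−0.34) and Cdca3 (−0.36) fell, and the Cdk-binding subunit gene Cks1b (0.38), the kinase gene Melk (0.30) and the phosphatase gene Cdc25a (0.21) rose. The third Cdc25 gene thus changed in the opposite direction to Cdc25b and Cdc25c. Of 17 genes of the anaphase-promoting complex and its inhibitors 5 fell and 7 rose (median 0.0038), with Fbxo5, which encodes the inhibitor Emi1, down (−0.31) together with Anapc16 (−0.26) and Anapc2 (−0.18), and Ube2s (0.42), Anapc11 (0.36) and Cdc27 (0.26) up. Of 16 cohesin and condensin II genes 7 fell and 2 rose (median −0.058), with the cohesin acetylase gene Esco2 (−0.39) and the ring genes Smc1a (−0.18) and Smc3 (−0.17) down. Stag2 (0.084) and Rad21 (0.059) rose, Rad21 not with upper-quartile scaling (adjusted p = 0.0869) or without control replicate 4 (adjusted p = 0.0527).

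Genes that switch the mitotic program on and off, the MuvB, retinoblastoma and E2F proteins and the Cdk inhibitors, were called lower and higher at shares near those of all tested genes. Of 29 tested, 12 fell and 12 rose (41.4% each, against 35.2% and 36.1% of all genes; median 0.028), and the median size of change was 0.24 on the log2 scale, against 0.16 for the 52 members and 0.22 for all genes tested. Rbl2, which encodes the p130 subunit of the repressive DREAM complex, was at 27.5, 29.3, 29.2, 25.8 and 25.4 CPM in siRNA libraries, and at 58.3, 58.6, 59.7, 56.2 and 59.3 CPM in control libraries (log2 fold change −1.09, SE 0.0413, adjusted p = 7.32e-26). Its groups lay far apart, and its reads were divided between genes in all 10 libraries. E2f2 averaged 8.47 ± 0.420 CPM in siRNA and 19.8 ± 1.22 CPM in control cells (SD, n = 5 each) and fell, and the Cdk inhibitor gene Cdkn1b (p27) fell by 0.71 on the log2 scale. Cdkn2b, which encodes the Cdk4 and Cdk6 inhibitor p15, was at 146, 149, 143, 149 and 156 CPM in siRNA libraries, and at 59.8, 64.1, 65.6, 67.1 and 55.7 CPM in control libraries (log2 fold change 1.25, SE 0.0373, adjusted p = 2.88e-22). E2f8 (0.56) and E2f6 (0.50), both repressor E2Fs, rose. Cdkn1a, the p53 target p21, averaged 59.4 ± 0.763 CPM in siRNA and 51.5 ± 1.23 CPM in control cells (SD, n = 5 each) and rose by 0.21 on the log2 scale.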

How the data were processed

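The deposited table holds expected counts per gene and library, which the authors made and did not normalize. The submitters' processing notes list HISAT2 2.2.1, Bowtie2 2.4.5, RSEM 1.3.1 and GRCm38.p6 without saying what each was used for; annotation, strand setting and filters are not given. Libraries were captured with oligo(dT) beads, per the labels' protocols. Groups and columns were matched to the labels by title.

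Expected counts were rounded and tested with edgeR 4.0.16 (R 4.3.3): TMM, filterByExpr with a minimum count of 10, robust quasi-likelihood fit on group, and Benjamini-Hochberg adjustment over all 12161 genes tested, with a threshold of 0.05. SE is the log2 fold change divided by the square root of F. CPM used unrounded counts. Between libraries of 1 group the chi-square of counts, divided by its degrees of freedom, was 1.50 to 3.47, above sampling noise. No library was thus taken for a second sequencing of another. This cannot tell separate cultures from several libraries made of 1 culture. The test was checked on simulated counts of 12161 genes, 200 of them changed. It recovered 32% of changes of 1.1-fold, 86% of 1.3-fold, 92% of 1.5-fold and 98% of 2-fold, with 7 false calls. The simulation used 1 common dispersion and far fewer changed genes than these data hold, so the shares are only a guide. A member that did not pass may still have changed by a small amount.

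Members, lists and the rule for named genes were chosen with earlier results of these data known. Every member is accounted for; values in each library are given for fixed members, for those with the largest and smallest fold change of each role group, and for some of the other named genes. Of other lists, up to 3 called genes in each direction with the smallest adjusted p are named, except 1 that is not reported here. Positions came from RefSeq genes (52 members matched), and transcript lengths, exon sharing over 10% and 3′ UTRs from GENCODE M21. Shared exon bases did not always go with divided reads. Ube2c, Kif4 and Cdc25c had fractional counts in 0 libraries. Of 9 members with any fractional count, those not marked above were Spc24 (5 libraries), Aurka (2 libraries) and Hmmr (1 library). Promoter sequences are RefSeq's, on GRCm38.p6. Protein sequences were not used here. Alternatives were scaling by upper quartiles or RLE, DESeq2 1.42.0, limma 3.58.1 (voom, or log2(CPM + 1)), a floor of 5 CPM on the mean or no filter at all, a replicate block, glmTreat, members without the 3′ UTR word, and each library left out. Partner ratios and TTTGAA alone as the CHR word were added after seeing the data.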

Additional observations from a re-analysis of the deposited data

Results flagged for a closer look

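In 10 of the 224 sets of 5 libraries examined, 1 library stood apart from the other 4 by Dixon's criterion, which chance alone meets in about 1 of 20 sets. Among the members, siRNA replicate 4 was low for Mki67 (363 CPM, against 371 to 374 CPM in the other siRNA libraries), Kif20b (81.1 CPM, against 85.7 to 87.4 CPM) and Ncapg (71.4 CPM, against 75.4 to 76.9 CPM). The same library was high for Spc24 (18.5 CPM, against 14.9 to 15.9 CPM). Ncapd2 was high in siRNA replicate 1 (215 CPM, against 204 to 207 CPM), and Nuf2 was low in control replicate 4 (66.9 CPM, against 69.8 to 70.7 CPM in the other control libraries). None of these libraries changed whether its gene passed the test when it was left out.

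Of other genes named, siRNA replicate 5 was low for Hjurp (418 CPM, against 439 to 445 CPM), Cdkn1b (75.9 CPM, against 81.9 to 84.2 CPM) and Itga9, an integrin gene among the lymphatic markers (27.5 CPM, against 31.7 to 32.8 CPM). Robo4, a guidance receptor gene among the endothelial markers, was high in control replicate 2 (239 CPM, against 231 to 232 CPM).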

How the results depend on the processing

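With RLE or upper-quartile factors, DESeq2, limma-voom, limma on log2(CPM + 1), a floor of 5 CPM on the mean, no filter, or any library left out, 26 to 29 members fell and 7 to 8 rose. The median log2 fold change of the members ran from −0.095 to −0.072 with a library left out and from −0.11 to −0.082 under the other settings. Their summed level was 91.7% to 92.9% of control with a library left out, 91.9% with RLE factors and 91.0% with upper-quartile factors. Without members holding the 3′ UTR word the median moved to −0.049. Against a fold of 1.5 (glmTreat), 0 members fell and 0 rose, 6 and 4 genes of the other mitosis and replication lists fell and rose (79 and 77 with no minimum fold), and 594 and 447 of all genes (4277 and 4391 with no minimum fold); a stricter null hypothesis calls fewer genes by construction. Of 52 members 47 kept their side of the threshold, and if called their direction, under all 18 settings run for single genes. The exceptions were Top2a, Smc4, Incenp, Espl1 and Ndc80, with 14 of 936 values changed and 0 called members reversed. The cause was not tested. The description of protein sequences was not run. With TTTGAA alone as the CHR word, 71.4% of members held it.

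No sign was seen that the replicate numbers pair the samples. Same-numbered libraries had correlations of −0.075 to 0.020 in their deviations from the group means, and 0 of 5 siRNA libraries correlated best with their own number. A weak pairing could be missed with 5 libraries in each group. With the replicate number as a block, 27 members fell and 7 rose, and Ndc80 did not pass (adjusted p = 0.0582). Depth limits Spc24 and Cdc25c most, the members with the fewest reads. Differences had to exceed the SE printed beside each gene by a clear margin to pass. Top2a (log2 fold change −0.04, SE 0.0244) did not pass, and Ndc80 (0.071, SE 0.0315) passed narrowly.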

Other observations

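Genes of DNA replication and the G1/S transition, which act earlier in the cycle, were called lower and higher at shares near those of all tested genes. Of 47 tested members of a list 19 fell (40.4%, against 35.2% of all genes) and 18 rose (38.3%, against 36.1%), with a median log2 fold change of 0.0087 and a summed level of 5416 to 5547 CPM in siRNA and 5688 to 5743 CPM in control libraries. The cyclin D genes Ccnd2 and Ccnd3 and their kinase gene Cdk6 fell. Ccnd2 was at 57.8, 63.5, 60.3, 62.0 and 64.9 CPM in siRNA libraries, and at 112, 115, 113, 115 and 113 CPM in control libraries (log2 fold change −0.88, SE 0.0311, adjusted p = 7.05e-27), with no overlap between the groups. Ccnd3 averaged 104 ± 3.81 CPM in siRNA and 144 ± 5.34 CPM in control cells and Cdk6 40.5 ± 0.617 CPM in siRNA and 57.1 ± 2.67 CPM in control cells (SD, n = 5 each). Cdk4, the other cyclin D kinase gene, rose (372 ± 2.55 CPM in siRNA and 314 ± 14.2 CPM in control cells; log2 fold change 0.24, SE 0.0257, adjusted p = 2.65e-11). The helicase cofactor gene Cdc45 (0.38) and the nucleotide hydrolase gene Dut (0.32) also rose. Reads of Ccnd3 were divided between genes in all 10 libraries. The difference between this list and the G2/M genes was not tested.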
